A study of Arabidopsis thaliana with 12 samples.

Results

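Shoots of Arabidopsis plants mutant in both GA1 and BRM (ga1-3/brm-1) were compared with wild-type shoots, using 3 ATH1 arrays of each out of the 12 arrays of the series. The ga1-3/brm-1 plants carried the ga1-3 mutation, which blocks an early step of gibberellin (GA) synthesis, together with brm-1, a null mutation of BRM. The other arrays were 3 of brm-1 and 3 of ga1-3. All 12 came from plants of the Col-0 ecotype, from shoots of 18-day-old seedlings raised on sucrose-containing agar. The study grew the genotypes side by side and describes the arrays as biological replicates. Homozygous brm-1 plants are sterile, so the study picked its brm-1 and ga1-3/brm-1 seedlings by genotyping segregating progeny. The ga1-3 mutation had been introgressed into Col-0, so DNA linked to GA1 can come from the donor line. Seeds of the ga1-3 lines were soaked in GA before sowing, according to the general growth methods, and the other seeds were not described as treated.

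BRM is the ATPase of a SWI/SNF complex, which moves or ejects nucleosomes and so alters the access of other proteins to DNA. GAs are growth hormones that bind the GID1 receptors and trigger the destruction of DELLA proteins, a family of growth repressors. GA synthesis is under feedback, in that genes of its last steps are expressed more strongly when GA is low. Plants that lack both BRM and most GA therefore miss a chromatin remodeler and a hormone that controls leaf growth, stem elongation and flowering.

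Every value is a log2 signal after GC-RMA, on which a difference of 1 is a doubling. A probe set was called higher or lower when its adjusted p from limma was under 0.05 and its fold change over 1.5. A level under 4.70 is called near background, a limit set at the percentile 26 of the genotype means, and differences from such a level are given as measured, with no fold. Signals of different probe sets are not comparable as amounts of RNA, and in whole shoots fewer cells of a type and less RNA per cell cannot be told apart. By principal components of the deviations from genotype means, 1 brm-1 array (replicate 3) lay at -37.78 on the first component, against -6.99 to 19.98 for the other 11 arrays. The ga1-3/brm-1 arrays lay at -6.86 to 5.62 and the wild-type arrays at -4.87 to 3.85 on it.

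The double mutant differed from the wild type at 3964 of the 16764 probe sets tested, or 23.6%. Of these, 2013 were higher and 1951 were lower in ga1-3/brm-1. More than 2-fold changes were found at 1074 probe sets that rose and 969 that fell. Changes over 8-fold numbered 97 rises and 63 falls, and changes over 16-fold 34 rises and 19 falls. The median difference of the whole table was -0.02, and at 53.3% of probe sets the 3 ga1-3/brm-1 arrays did not overlap with the 3 of wild type. Set directly against brm-1, ga1-3/brm-1 was higher at 835 probe sets (4.98%) and lower at 633 (3.78%), 1468 in all (8.76%). Set against ga1-3, it was higher at 1809 (10.8%) and lower at 1686 (10.1%), 3495 in all (20.8%). All 3 comparisons share the ga1-3/brm-1 arrays.

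**Figure D1:**
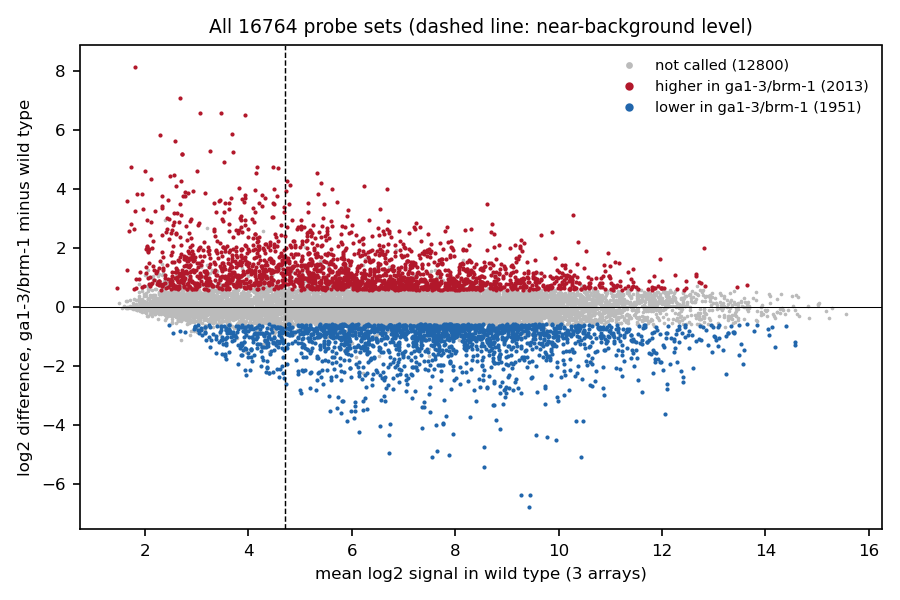
Log2 difference between ga1-3/brm-1 and wild type (y axis) against the mean log2 signal in wild type (x axis) for the 16764 probe sets, 1 point each. The 2013 rises lie above zero and the 1951 falls below it; the largest rises start left of the dashed near-background level of 4.70.

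Rises and falls began at different levels. The wild type was near background for 660 of the 2013 rises (32.8%), and for 77 of the 97 rises over 8-fold (79.4%). In turn, ga1-3/brm-1 was near background for 498 of the 1951 falls (25.5%) and for 46 of the 63 falls over 8-fold (73.0%). For 31 of the 97 largest rises, brm-1, ga1-3 and wild type were all near background. Names were also uneven. The platform table gives a gene for 1028 of the rises and 1042 of the falls, and the study's own tables add 422 rises and 785 falls. No gene name was at hand for 535 rises and 76 falls. Counts of gene groups below therefore use the 9267 probe sets that the platform table names, of which 11.1% rose and 11.2% fell, 22.3% in all. Members named only through the study's tables, which list genes the study had called in some mutant, are counted apart, and such a count has no background.

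BRM itself was the first check of the genotype. Its probe set read 2.72, 3.01 and 2.92 in ga1-3/brm-1, against 7.94, 7.87 and 7.84 in the wild type. The groups were far apart, with a difference of -5.001 ± 0.11 (standard error, adjusted p = 6.6e-09). BRM was just as low in brm-1, at 2.89 ± 0.11 (SD, n = 3), and stood at 8.14 ± 0.19 in ga1-3. No probe set was named GA1 here, so the other mutation was not checked on its own transcript.

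Most other SWI/SNF subunits measured were not called. Of 6 measured members named by the platform table, 1 fell, none rose, and their median difference was -0.15, against -0.02 over all platform-named probe sets. The one that fell was CHR23, an ATPase related to BRM, with 4.44, 4.54 and 4.48 in ga1-3/brm-1 and 5.86, 5.80 and 5.34 in the wild type (-1.18 ± 0.21, adjusted p = 0.0016). CHR23 was near background in ga1-3/brm-1. SWI3B, a core subunit named by the study's tables, fell by 0.61 on the log2 scale (adjusted p = 0.0029). Its call was lost without the third wild-type array (-0.54) or the first ga1-3/brm-1 array (-0.50). CHC1, the SWP73B subunit, had -0.55 ± 0.10 and missed the fold threshold. AT3G01890 (SWP73A), CHB3 (SWI3D), SWI3A and BSH, all subunits of these complexes, had differences of -0.30, 0.00, 0.07 and 0.13 and did not pass the test. AT3G01890 and SWI3A were near background in both genotypes, where a change could go unseen.

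Genes that make active GA were higher in the double mutant. GA20OX2, a GA 20-oxidase that acts late in the pathway, read 8.71, 8.68 and 8.61 in ga1-3/brm-1 and 4.71, 4.82 and 4.67 in the wild type. That is a rise of 3.93 ± 0.16, or 15.3-fold, with little spread between arrays of a genotype. GA3OX1, which performs the final activating step, read 7.36, 7.39 and 7.95 in ga1-3/brm-1 and 4.85, 4.85 and 5.10 in the wild type, a 6.21-fold rise. Both stood lower in brm-1, at 3.34 and 2.82, and higher in ga1-3, at 9.23 and 8.88. Against ga1-3, the double mutant was lower for GA3OX1 by the direct test (-1.31, adjusted p = 4.4e-04), whereas the difference for GA20OX2 missed the fold threshold (-0.56). GA20OX1 rose by 2.47 ± 0.29, with the wild type near background. GA20OX3 was called at 1.17 ± 0.40, with both genotypes near background. Of the fits without 1 array, only that without the second ga1-3/brm-1 array kept the call, and the others gave 0.76 to 1.19. The ent-kaurene oxidase GA3, of an early step, did not pass (-0.06 ± 0.13). All 5 were named by the study's tables.

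Receptor genes of GA rose where they passed the test. GAI and RGA1, the only DELLA genes measured on this list, fell. Of 6 platform-named genes of GA perception and signalling, 2 rose and none fell, with a median of 0.09. The receptor GID1B read 7.66, 7.61 and 7.21 in ga1-3/brm-1 and 6.07, 6.39 and 6.24 in the wild type (1.26 ± 0.29), and the receptor GID1A rose by 0.88 ± 0.11. The third receptor, GID1C, had -0.47 ± 0.18 and did not pass. Among study-named genes, the DELLA genes GAI and RGA1 fell by 1.11 and 0.65 on the log2 scale, RGA1 only with the third wild-type array in the fit (-0.56 without it). SCL3, a GRAS gene that acts in GA signalling, had 0.43 ± 0.13 and missed the fold threshold. SPY, a glycosyltransferase-like repressor, had -0.41 ± 0.09 and missed it too, and the F-box genes SLY1 and SLY2 had 0.10 and 0.07 and did not pass.

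The largest rises with a named gene included a glucosinolate enzyme, a protease inhibitor and genes of the low-oxygen response. AOP3, an oxygenase that modifies glucosinolates, read 9.56, 9.45 and 10.32 in ga1-3/brm-1 against 2.63, 2.66 and 2.77 in the wild type (7.09 ± 0.23). It lies on chromosome 4 near GA1 and was also high in ga1-3 (8.09) but not in brm-1 (2.85), so loss of GA and linked donor DNA cannot be told apart. CYS2, a cystatin that inhibits cysteine proteases, read 9.27, 9.69 and 9.68 in ga1-3/brm-1 against 4.13, 3.41 and 3.52 in the wild type. It stood at 7.72 in brm-1 and 7.12 in ga1-3, and the double mutant was higher than each by direct test (1.83 and 2.42, adjusted p = 0.0020 and 1.2e-04). AT3G21770, which encodes peroxidase 30, had 9.07, 8.67 and 9.12 in ga1-3/brm-1 and 3.78, 4.48 and 2.85 in the wild type. The carboxypeptidase-like gene scpl35 rose by 4.55 ± 0.35 and AT1G07050, which encodes a CCT-motif protein, by 4.62 ± 0.57.

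Part of this group was seen in the double mutant alone. AT4G27654, of unknown function, read 8.65, 7.22 and 7.84 in ga1-3/brm-1 and 2.68, 2.72 and 2.75 in the wild type, and averaged 2.71 in brm-1 and 2.66 in ga1-3. AT3G29970, which encodes a B12D-family protein, read 9.47, 7.50 and 7.61 in ga1-3/brm-1 and 2.54, 2.53 and 2.69 in the wild type, with 2.70 in brm-1 and 2.68 in ga1-3. For AT3G29970 the rise was 5.61 ± 0.41, or 4.97 without the first ga1-3/brm-1 array. For both genes the double mutant was higher than either single mutant by direct test (differences of 5.19 to 5.52). The largest rise of all, 8.12 ± 0.86, was that of a probe set for which no gene name was at hand.

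The deepest falls took genes that were well expressed in the wild type to near background. AT1G66100, which encodes a thionin, a small antimicrobial peptide, read 2.74, 2.74 and 2.48 in ga1-3/brm-1 against 8.97, 9.89 and 9.45 in the wild type (-6.78 ± 0.29). It was also near background in ga1-3 (2.68) and stood at 6.54 in brm-1. CIPK20, a protein kinase that partners calcium sensors, read 3.51, 2.26 and 2.93 in ga1-3/brm-1 against 9.41, 9.18 and 9.24 in the wild type. It was intermediate in brm-1 (5.73) and ga1-3 (7.73), and lower in the double mutant than in each by direct test (-2.83 and -4.83). AACT1, annotated by name as an anthocyanin acyltransferase, fell by 6.37 on the log2 scale, with 2.25 in brm-1 and 5.36 in ga1-3. AT5G62080, of the lipid transfer protein family, was near background in all 3 mutants. Its wild-type arrays scattered from 6.20 to 8.87, and its fall of 5.09 became 4.43 without the second wild-type array and 5.77 without the third.

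Some falls were deeper in the double mutant than in either single mutant. AT2G29290, a tropinone reductase-like gene, read 5.33, 5.49 and 5.50 in ga1-3/brm-1 and 10.08, 9.85 and 9.94 in the wild type, and averaged 6.39 in brm-1 and 8.97 in ga1-3. NCED4, which cleaves carotenoids, fell by 4.39 ± 0.37, and AT2G03550, annotated as a hydrolase, by 4.75 ± 0.21. AT1G54740, of unknown function, fell by 5.07 ± 0.36. Each of these 4 was lower in the double mutant than in either single mutant by direct test. MIOX4, an inositol oxygenase, fell by 4.95 ± 0.52, and AT4G24350, of the phosphorylase family, by 4.88 ± 0.33. By direct test, MIOX4 was lower than in brm-1 (-1.98) but did not pass against ga1-3 (-0.89), where it was also near background. AT4G24350 was lower than in ga1-3 (-1.72) but did not pass against brm-1 (0.38), where it was also near background. AT4G02540, a DC1-domain gene beside GA1 on chromosome 4, had 3.14 in ga1-3/brm-1 and 8.56 in the wild type, with 3.18 in ga1-3 and 8.49 in brm-1. Linked donor DNA cannot be told apart from loss of GA there either.

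**Figure D2:**
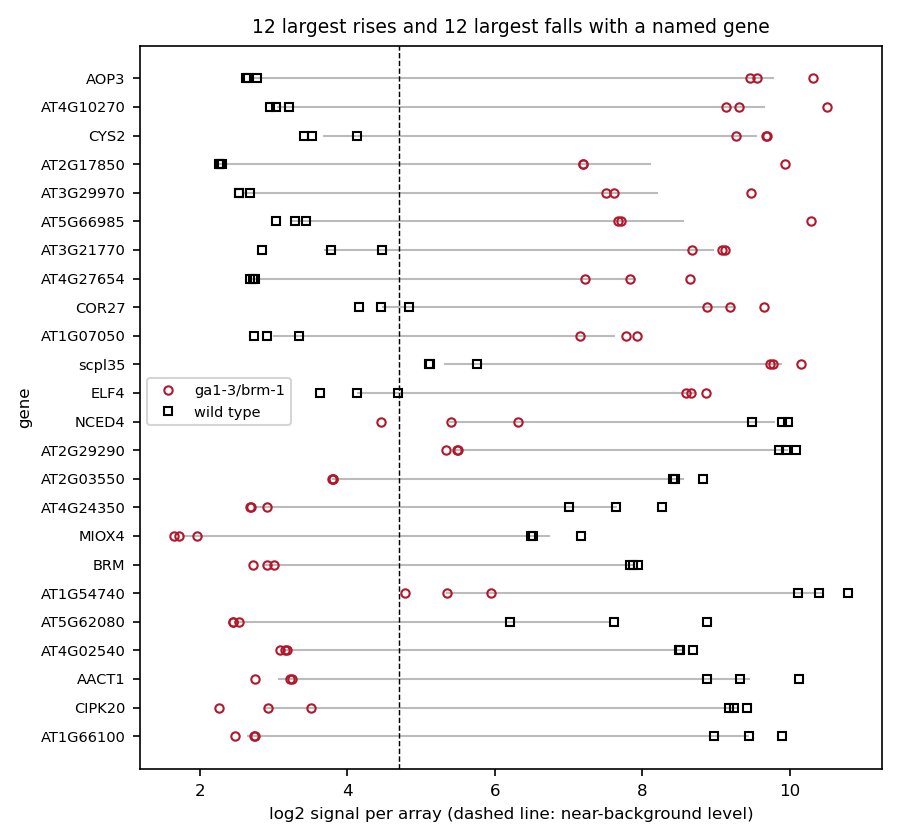
Log2 signal of each ga1-3/brm-1 array (circles) and each wild-type array (squares) for the 12 largest rises and 12 largest falls with 1 named gene; grey lines join the means and the dashed line is the near-background level. In every row the groups stand apart, and AT2G17850, AT3G29970 and AT5G66985 each have 1 ga1-3/brm-1 array well above the other 2.

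Genes of the low-oxygen response rose together in the double mutant. When oxygen is short, plant cells induce a core set of genes that serve fermentation, signalling and unknown functions. Of 24 platform-named members measured, 15 rose and 2 fell, with a median difference of 1.76, against the 11.1% and 11.2% given above. A further 6 members were named by the study's tables, of which 2 rose and 3 fell. AT4G10270, a small wound-responsive-family gene, read 10.50, 9.14 and 9.31 in ga1-3/brm-1 and 2.95, 3.21 and 3.04 in the wild type (6.58 ± 0.55). AT2G17850, which encodes a rhodanese-like protein, read 9.93, 7.19 and 7.20 in ga1-3/brm-1 and 2.27, 2.27 and 2.30 in the wild type. In both genes all ga1-3/brm-1 arrays were far above the wild type, and the first of them was highest.

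The same first array stood highest for 16 of the 17 rises of this list, against 30.8% of all 2013 rises. Without it all 17 were still called, and their median difference was 1.92 in place of 2.25. AT2G17850 had 4.91 without that array in place of 5.82, AT5G66985 4.44 in place of 5.30, AT4G33560 3.58 in place of 4.29 and AT5G10040 2.67 in place of 3.86. AT5G66985, a small gene of unknown function, read 10.28, 7.71 and 7.67 in ga1-3/brm-1 and 3.28, 3.03 and 3.45 in the wild type. The genotypes did not overlap in any of these genes. Whether oxygen supply differed between the seedlings was not measured, and its part in these values was not tested.

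Regulators and other members of the list were mixed. AT3G10040, which encodes HRA1, a factor that restrains the response, read 6.59, 5.74 and 5.08 in ga1-3/brm-1 and 2.49, 2.68 and 2.89 in the wild type. CML38, a calmodulin-like protein of stress granules, read 10.83, 9.74 and 9.93 in ga1-3/brm-1 and 7.27, 7.47 and 9.002 in the wild type (2.25 ± 0.47). AT3G03270, which encodes a universal stress protein, rose by 2.70 ± 0.41. In contrast, the transcription factor gene ERF73 (HRE1), an ERF of group VII, fell by 2.03 on the log2 scale (5.49, 4.77 and 5.35 in ga1-3/brm-1, against 6.94, 7.45 and 7.31 in the wild type). AT1G19530, a strongly hypoxia-induced gene of unknown function, fell by 2.45 on the log2 scale. AT3G10020, UKL3 and the ethylene receptor gene ETR2 were also lower, ETR2 no longer after removal of any 1 array except the first ga1-3/brm-1 array (-0.96 to -1.24). The highest-signal members that did not pass were AT4G27450 (-0.03 ± 0.15) and the pyruvate decarboxylase gene PDC2 (-0.35 ± 0.19), an enzyme of fermentation. Of the 24 platform-named members, 16 were higher and 2 lower in ga1-3/brm-1 than in brm-1 (4.40% and 3.57% of all platform-named probe sets). Against ga1-3, 15 were higher and 3 lower in ga1-3/brm-1 (9.86% and 9.98%). In the single mutants against the wild type, 4 rose and 3 fell in brm-1 (6.49% and 6.82%), and 1 rose and 1 fell in ga1-3 (3.85% and 4.22%).

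**Figure D3:**
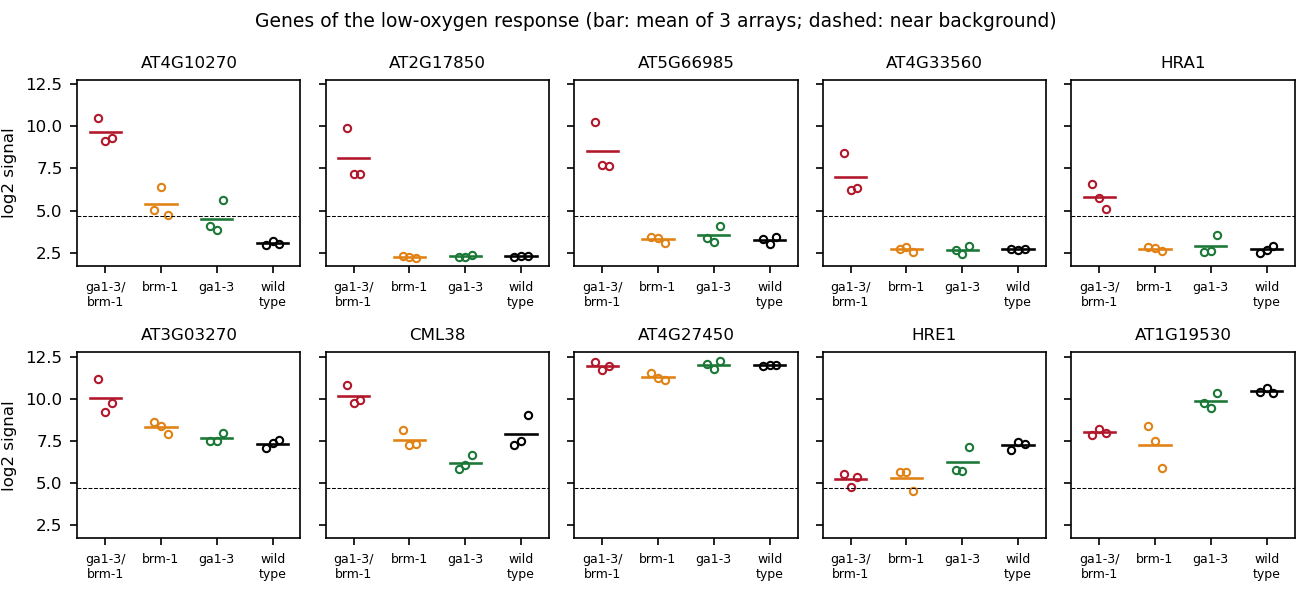
Log2 signal per array (circles) and mean (bars) of 10 low-oxygen genes in ga1-3/brm-1, brm-1, ga1-3 and wild type, 3 arrays each; the dashed line is the near-background level. AT2G17850, AT5G66985, AT4G33560 and HRA1 leave background in ga1-3/brm-1 alone, AT4G27450 stays level between ga1-3/brm-1 and wild type, and HRE1 and AT1G19530 are lower in ga1-3/brm-1.

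Clock genes differed in both directions, with the morning genes CCA1 and LHY down and the evening genes TOC1 and ELF4 up. The circadian clock is a loop in which the morning factors CCA1 and LHY and the evening factors repress each other, with PRR proteins acting in sequence through the day. Of 16 measured members, 9 fell, 6 rose and 1, GI, did not pass. All but GI were named by the study's tables, so this count has no background. CCA1 read 4.58, 3.43 and 3.86 in ga1-3/brm-1 and 7.90, 7.13 and 7.50 in the wild type (-3.55 ± 0.28). LHY read 3.62, 2.15 and 2.16 in ga1-3/brm-1 and 6.08, 5.65 and 5.79 in the wild type. Both stood apart from the wild type on every array and were near background in the double mutant.

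Other morning-side genes fell as well. The coactivator genes LNK2 (AT3G54500), LNK3 (AT3G12320) and LNK1 (AT5G64170) fell by 3.86, 3.82 and 3.21 on the log2 scale, and the CCA1-related RVE1 fell by 2.93. Of the PRR genes, PRR9 had -3.06, PRR7 -2.29 and PRR5 -0.80, all called lower, while PRR3 rose by 2.48 ± 0.24. PRR9 was read by a probe set of the kind that more than 1 transcript can match. ELF4, of the evening complex that represses PRR9, read 8.59, 8.65 and 8.86 in ga1-3/brm-1 and 3.63, 4.69 and 4.13 in the wild type. The evening gene TOC1 read 8.68, 9.03 and 8.72 in ga1-3/brm-1 and 6.29, 6.50 and 6.38 in the wild type, a 5.34-fold rise. ELF4 and TOC1 left no overlap between the genotypes. ELF3, the partner of ELF4, rose by 1.21 ± 0.17, and the clock-controlled RNA-binding protein genes GRP7 and GRP8 (CCR1) rose by 1.99 ± 0.18 and 1.04 ± 0.10. GI had 7.75 in ga1-3/brm-1 and 7.86 in the wild type, with overlapping arrays.

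Several clock genes of ga1-3/brm-1 stood close to their brm-1 levels. TOC1 averaged 8.81 in ga1-3/brm-1 and 8.80 in brm-1, and ELF4 8.70 and 8.61, and neither difference passed the test. By direct test, 5 of the 16 clock genes were lower in the double mutant than in brm-1 and none was higher. They were LNK2 (-0.99 ± 0.24), LNK1 (-1.53), LNK3 (-1.34), PRR7 (-0.78) and PRR5 (-0.70). This count has no background either. The hour of harvest was not given in the sources used here, and its part in these values was not tested.

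Light-signalling genes could be described only one by one, since 6 of the 7 measured were named by the study's tables, which hold more falls than rises. These 6 were all lower. PKS4, a phytochrome kinase substrate, read 2.87, 2.69 and 2.67 in ga1-3/brm-1 and 6.13, 6.45 and 6.08 in the wild type (-3.48 ± 0.33). PKS2 read 7.86, 8.02 and 8.04 in ga1-3/brm-1 and 10.68, 10.69 and 10.54 in the wild type. The photoreceptor gene CRY1 read 8.64, 8.64 and 8.67 in ga1-3/brm-1 and 9.99, 9.71 and 9.80 in the wild type (-1.18 ± 0.10). HFR1, a factor that restrains the shade response, and SPA1, a repressor of light signalling, fell by 2.43 and 1.90 on the log2 scale. HYH, the only member that the platform table names, had -0.52 ± 0.31 and did not pass.

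Flowering genes changed in both directions. Of 15 measured, 10 fell and 3 rose, but 13 of them were named by the study's tables, so the balance of falls and rises has no background. Of the 2 that the platform table names, 1 fell. COL2, a relative of CO, read 4.36, 4.11 and 3.94 in ga1-3/brm-1 and 8.14, 7.71 and 7.63 in the wild type (-3.69 ± 0.33). The DOF factor genes CDF1, CDF3 and CDF2, whose products repress CO, fell by 3.20, 3.05 and 2.23 on the log2 scale. CO, the central activator of the photoperiod pathway, read 5.69, 5.16 and 5.45 in ga1-3/brm-1 and 2.47, 2.64 and 2.56 in the wild type. It was higher than in brm-1 (4.15) and in ga1-3 (2.64) by direct test.

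Integrators and repressors of flowering also differed. SOC1 (AGL20), which integrates flowering signals, read 7.15, 7.41 and 7.12 in ga1-3/brm-1 and 8.53, 8.42 and 8.71 in the wild type, a fall of 1.33 on the log2 scale. FLC, a repressor of flowering, read 6.70, 6.89 and 6.19 in ga1-3/brm-1 and 4.92, 5.49 and 5.05 in the wild type (1.44 ± 0.37). FLC was lower in the single mutants than in the double mutant, at 4.46 in brm-1 and 3.26 in ga1-3, with direct differences of 2.13 and 3.34. SVP, another repressor, fell by 0.95 on the log2 scale. AGL24 fell by 1.17 on the log2 scale but lost its call without the third wild-type array (-1.07) or the first ga1-3/brm-1 array (-0.83). The highest-signal members that did not pass were RAP2.7 (TOE1), an AP2 factor that delays flowering, at -0.66 ± 0.27 and SMZ, of the same class, at 0.03 ± 0.16.

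**Figure D4:**
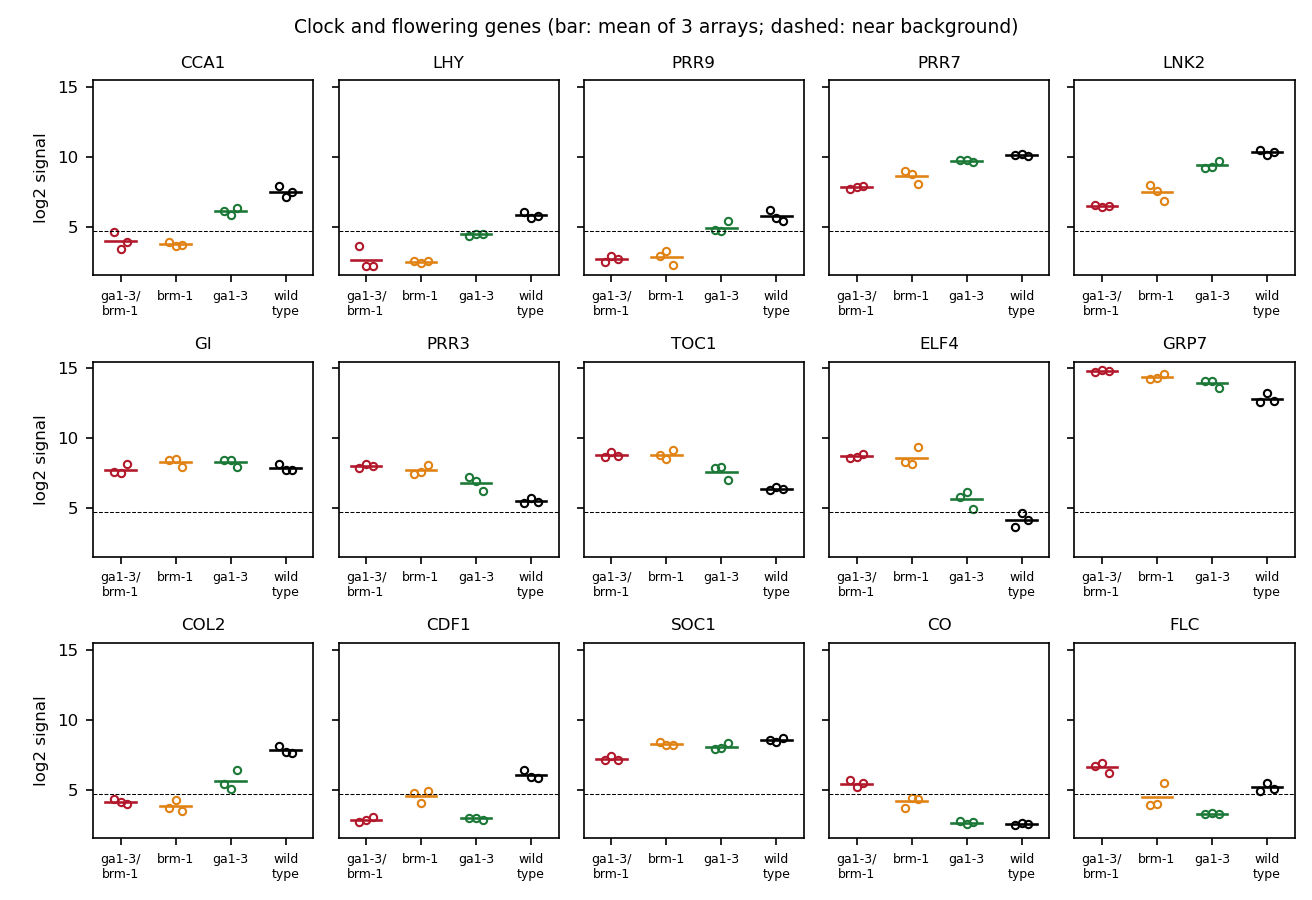
Log2 signal per array (circles) and mean (bars) of 10 clock genes and 5 flowering genes in ga1-3/brm-1, brm-1, ga1-3 and wild type, 3 arrays each; the dashed line is the near-background level. CCA1, LHY, PRR9, PRR7, LNK2, COL2, CDF1 and SOC1 are lower in ga1-3/brm-1 than in wild type, PRR3, TOC1, ELF4, GRP7, CO and FLC are higher, and GI overlaps.

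Auxin-response genes changed in both directions, with more falls than rises among those measured. Aux/IAA proteins repress auxin signalling and GH3 enzymes conjugate auxin, and many of their genes are themselves induced by auxin. Of 6 platform-named members, 1 rose and 3 fell, with a median of -0.85. Of 10 study-named ones 2 rose and 7 fell, a count that has no background. IAA29 read 2.29, 2.79 and 3.08 in ga1-3/brm-1 and 5.82, 6.44 and 5.92 in the wild type (-3.34 ± 0.25). IAA7 read 9.38, 9.49 and 9.50 in ga1-3/brm-1 and 11.30, 11.65 and 11.45 in the wild type. Both were lower in the double mutant than in either single mutant by direct test. GH3.3, which encodes a GH3 enzyme, fell by 1.97 on the log2 scale. GH3.17, of the same enzyme family, rose by 2.11 ± 0.22, with the wild type near background. ATAUX2-11 (IAA4) and IAA18 had -0.52 and -0.38 and did not pass.

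Cytokinin and brassinosteroid genes were few. The cytokinin receptor gene WOL (AHK4) read 6.18, 6.48 and 7.15 in ga1-3/brm-1 and 4.22, 4.60 and 4.42 in the wild type (2.19 ± 0.24). The response regulator genes ARR4 and RR16 (ARR16) rose by 1.82 ± 0.34 and 0.98 ± 0.14, and CKX6, of a cytokinin-degrading family, fell by 1.01 on the log2 scale. ARR15 had 0.57 ± 0.38 and did not pass. CKX6 and ARR15 were near background in both genotypes, and WOL was near background in the wild type. Of brassinosteroid genes, the receptor gene BRI1 and the biosynthetic gene CPD fell by 0.92 and 0.69 on the log2 scale, and BAS1, which inactivates the hormone, rose by 0.77 ± 0.13. All 3 were named by the study's tables.

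Genes of cell wall loosening changed in both directions. Expansins loosen the wall without cutting it, and XTH enzymes cut and rejoin xyloglucan chains. Of 10 platform-named expansins, 6 rose and 2 fell, with a median of 0.98. EXPA4 read 7.82, 7.82 and 8.53 in ga1-3/brm-1 and 3.52, 5.36 and 3.90 in the wild type (3.80 ± 0.65), and EXPB3 rose by 2.43 ± 0.27. Both were near background in the wild type, and EXPB3 averaged only 4.75 in ga1-3/brm-1. EXLB1, an expansin-like gene, fell by 2.25 on the log2 scale and was near background in all 3 mutants. EXPA5, named by the study's tables, read 4.40, 4.50 and 4.25 in ga1-3/brm-1 and 6.53, 7.27 and 6.96 in the wild type. EXPA5 was lower in the double mutant than in either single mutant by direct test (-1.58 and -0.86). The brightest expansins that did not pass were EXLA1 (-0.47 ± 0.57) and EXPA1 (-0.03 ± 0.22).

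Of 7 platform-named XTH genes, 2 rose and 1 fell, with a median of 0.14, and of 8 study-named ones 3 rose and 4 fell. XTH19 read 10.04, 9.10 and 9.76 in ga1-3/brm-1 and 5.25, 5.62 and 5.98 in the wild type, a 16.1-fold rise. XTH31 rose by 4.11 ± 0.38, with the wild type near background. Both were higher in the double mutant than in either single mutant by direct test. XTH6 read 9.46, 9.86 and 9.51 in ga1-3/brm-1 and 11.98, 11.65 and 11.86 in the wild type. XTR6 (XTH23) scattered from 4.76 to 7.45 among the ga1-3/brm-1 arrays, and its fall of 2.80 on the log2 scale was no longer called without any 1 array except the first ga1-3/brm-1 array (-2.11 to -2.94). XTH16 and XTH18 had -0.78 ± 0.38 and 0.47 ± 0.51 and did not pass.

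Glucosinolate and ER-body genes rose. Glucosinolates are sulfur-containing defence compounds, and ER bodies store the beta-glucosidases that can act on them. Of 7 platform-named members, 6 rose and none fell, with a median of 1.73, and of 7 study-named ones 4 rose and 1 fell. PYK10, the beta-glucosidase of ER bodies, read 12.69, 12.18 and 12.41 in ga1-3/brm-1 and 9.34, 10.35 and 9.93 in the wild type (2.55 ± 0.31). NAI2, needed to form ER bodies, read 10.49, 10.53 and 10.63 in ga1-3/brm-1 and 7.64, 7.80 and 8.11 in the wild type, a 6.51-fold rise. For both genes the arrays of the genotypes did not overlap. AOP3 belongs to this list too and is counted among its rises, although loss of GA and linked donor DNA cannot be told apart there. AOP1, the neighbour of AOP3, rose by 1.73 ± 0.17, and stood at 6.05 in brm-1 against 4.61 in the wild type. The part of linked donor DNA in the rise of AOP1 was not tested. ESP, which steers glucosinolate breakdown towards nitriles, fell by 2.62 on the log2 scale. BCAT4 and MYB51, an enzyme and a factor of glucosinolate synthesis, had 0.49 ± 0.32 and -0.66 ± 0.28 and did not pass.

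Jasmonate-linked and defence peptide genes fell. Of 5 platform-named members, 4 fell and none rose, with a median of -1.93. Besides AT1G66100, the thionin gene THI2.2 read 3.71, 3.55 and 2.95 in ga1-3/brm-1 and 4.85, 6.10 and 5.61 in the wild type (-2.12 ± 0.44). The defensin gene PDF1.2 read 5.31, 4.80 and 4.35 in ga1-3/brm-1 and 6.93, 7.32 and 5.99 in the wild type. The ranges of both stood apart, by less than 1 log2 unit for PDF1.2. The fourth, THI2.1, fell by 1.22 on the log2 scale with overlapping arrays, and its call was lost without any 1 array except the first wild-type array (-0.75 to -1.24). TIFY7 (JAZ9), a jasmonate repressor named by the study's tables, fell by 2.31 on the log2 scale. The defensin gene PDF1.2b had -0.91 ± 0.50 and did not pass. In the salicylate pathway, PR1, a marker of that defence, rose by 3.69 ± 0.90 with 1 wild-type array at 5.33 and the others at 2.68 and 2.96. PR1 had 4.52 without that wild-type array and 3.06 without the second ga1-3/brm-1 array. EDS16 (SID2), which makes salicylate, fell by 1.34 on the log2 scale, and SAG101 and PAD4 did not pass.

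Some cold-regulated genes rose. Of 6 platform-named members of the cold and dehydration list, 4 rose and none fell, with a median of 2.75. COR27, which is regulated by cold and the clock, read 9.19, 9.65 and 8.87 in ga1-3/brm-1 and 4.16, 4.45 and 4.83 in the wild type. COR15B, a chloroplast protein that protects membranes in frost, read 8.68, 9.57 and 10.54 in ga1-3/brm-1 and 5.35, 5.49 and 5.37 in the wild type (4.19 ± 0.61). COR28 (AT4G33980), a relative of COR27, rose by 2.74 ± 0.28. In brm-1, COR27, COR15B and COR28 stood at 9.08, 8.83 and 8.43, and none of them passed the direct test between ga1-3/brm-1 and brm-1. COR15A had -1.71 ± 1.02 against the wild type, with both genotypes near background, and did not pass. The rises also did not extend to COR47, a dehydrin gene (-0.14 ± 0.48), nor to RAB18, an abscisic acid-induced dehydrin gene (0.17 ± 0.36). LTI30, another dehydrin gene, was called at 2.75 ± 0.89 but not after removal of any single array of the genotypes compared (2.60 to 3.01).

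Some photosynthesis genes fell and none of those listed rose. Light-harvesting proteins bind chlorophyll around the photosystems. Of 7 measured, 4 fell and none rose, with 3 platform-named (1 fell, median 0.01). LHCB2.3 read 8.37, 8.38 and 9.50 in ga1-3/brm-1 and 11.40, 11.69 and 11.76 in the wild type (-2.86 ± 0.42). LHCB4.2, LHCB3 and LHCA1 fell by 0.74, 0.67 and 0.64 on the log2 scale, LHCB3 not beyond the fold threshold without the second ga1-3/brm-1 array (-0.57). LHCB4.1 read 13.94, 13.91 and 13.93 in ga1-3/brm-1 and 13.97, 13.92 and 13.85 in the wild type, and Lhca6 had -0.54 ± 0.22, and neither passed. Among 9 genes of chlorophyll synthesis, 4 fell and none rose. All 4 falls were among the 7 named by the study's tables, so this count has no background. Neither of the 2 platform-named ones was called. CH1, which makes chlorophyll b, read 8.47, 7.97 and 8.44 in ga1-3/brm-1 and 10.11, 9.88 and 10.24 in the wild type. HEMA1, of the first committed step, and POR C, of the light-dependent step, fell by 0.80 and 0.73 on the log2 scale. PORB and CHLM, also enzymes of chlorophyll synthesis, had -0.51 and -0.42 and missed the fold threshold.

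Several genes induced by darkness and sugar starvation fell. All 10 measured were named by the study's tables, which hold more falls than rises, so their 9 falls and no rise have no background. ASN1, an asparagine synthetase, read 10.95, 11.56 and 10.39 in ga1-3/brm-1 and 13.15, 13.21 and 13.39 in the wild type (-2.28 ± 0.41). DIN2, a beta-glucosidase induced in the dark, read 2.41, 2.90 and 2.09 in ga1-3/brm-1 and 6.19, 5.33 and 6.42 in the wild type, and its fall of 3.52 on the log2 scale lost the call without the third wild-type array (-3.30). Neither gene was called in brm-1 or ga1-3 against the wild type, and both were lower in ga1-3/brm-1 than in each single mutant. BMY3 (BAM9), a beta-amylase-like protein, and TPS11, of the trehalose phosphate synthase family, fell by 1.65 and 1.52 on the log2 scale. TPS10 of the same family had 0.42 ± 0.16 and did not pass. The senescence regulators NAP and NAC6 (ORE1) fell by 2.67 and 1.78 on the log2 scale, whereas WRKY6 rose by 0.97 ± 0.27, a call that needed the second wild-type array (0.84 without it).

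Nutrient genes differed one by one. The nitrate reductase gene NIA1 read 12.59, 12.55 and 12.57 in ga1-3/brm-1 and 10.67, 9.96 and 10.48 in the wild type, a rise of 2.20 ± 0.30. Its homologue NIA2 had 0.55 ± 0.18 and missed the fold threshold. NEET, an iron-sulfur protein gene of the chloroplast, read 4.47, 4.64 and 4.53 in ga1-3/brm-1 and 8.52, 8.10 and 8.23 in the wild type (-3.73 ± 0.31). Of the iron transporter-like genes, AT3G25190 (VTL5) and AT1G76800 (VTL2) fell by 2.30 and 1.12 on the log2 scale. The iron store gene FER1 fell by 0.99 on the log2 scale and lost its call without the first or the second wild-type array or the first or the third ga1-3/brm-1 array (-0.76 to -1.04). Of 7 genes measured on the flavonoid list, 1 rose, 4 fell and 2 did not pass. AACT1, placed there by its annotated name, is 1 of the 4 falls, and 5 of the 7 were named by the study's tables. TT5, the chalcone isomerase, rose by 1.30 ± 0.15. MYBL2, a repressor of anthocyanin synthesis, fell by 2.79 ± 0.14 on the log2 scale. F3H and TTG1, both needed for flavonoid pigments, fell by 1.35 and 1.30, and UGT78D1 and UGT78D2, flavonol glycosyltransferases, did not pass.

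**Figure D5:**
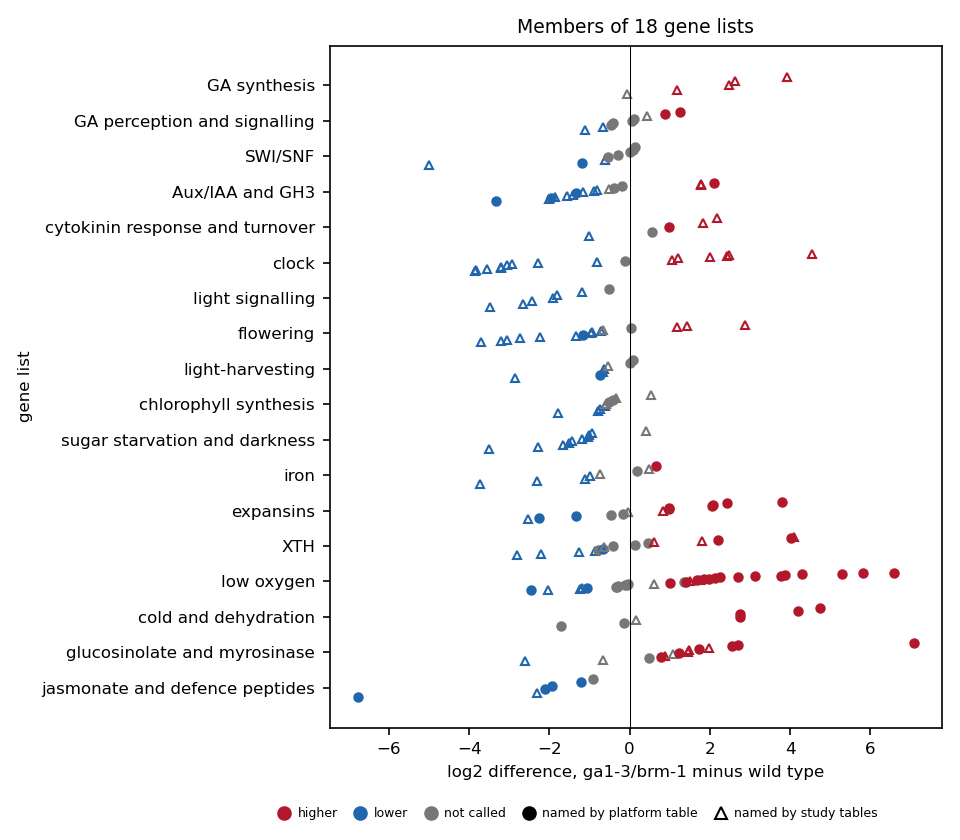
Log2 difference between ga1-3/brm-1 and wild type (x axis) of each measured member of 18 gene lists (rows). Circles are genes named by the platform table, triangles those named by the study's tables, and colour gives the call; most low-oxygen, glucosinolate and cold members lie right of zero and most light, sugar-starvation and defence-peptide members left of it. Where triangles prevail, the direction has no background.

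Markers of cell types moved in places. Leaf markers stood high in both genotypes, with LHCB3 at 13.5 in ga1-3/brm-1 and 14.1 in the wild type and CA1 at 12.4 in ga1-3/brm-1 and 13.0 in the wild type. Of the 4 flower markers measured, SEP1, SEP2 and PI fell by 2.00, 1.84 and 0.93 on the log2 scale, and SEP3 did not pass. SEP1 read 2.93, 2.51 and 2.50 in ga1-3/brm-1 and 4.20, 4.75 and 4.99 in the wild type, a mean near background in each. PI lost its call without the second or the third wild-type array or the third ga1-3/brm-1 array (-0.58 to -0.93). Of 9 stomata and trichome genes, TMM and SPCH, which act early in the stomatal lineage, rose by 2.22 ± 0.37 and 1.56 ± 0.36, MYB23 of trichomes fell by 1.24 on the log2 scale, and the rest did not pass. The vascular genes IRX1 and XCP2 fell by 1.08 and 0.98 on the log2 scale. Both of these and the 4 flower markers were named by the study's tables, so their falls have no background. No listed root, seed or shoot meristem marker was named here. The part of such shifts in the other results was not tested.

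The changes were spread over the nuclear chromosomes and nearly absent from plastid genes. By platform-named genes, 9.55% to 11.9% rose and 10.7% to 12.6% fell on chromosomes 1 to 5. Of 69 plastid-encoded genes, 1 rose and 1 fell (1.45% each), with a median absolute difference of 0.139, against 0.266 to 0.290 on the nuclear chromosomes. Another 24 platform-named probe sets, of which 3 rose and none fell, were counted as mitochondrial. Probe sets without a matched locus fell into that count too, so it is not read as one of mitochondrial genes. The labelling kit starts at poly(A) tails, which most organelle transcripts lack.

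Most falls carry a description in the study's tables, 1750 of the 1951, and the words of these descriptions were counted. Protein kinases made up 118 of them (6.74% of the described falls), transcription factors 107 (6.11%), transporters 60 (3.43%) and zinc finger proteins 47 (2.69%). Auxin was named in 27 and F-box proteins in 19, and 299 (17.1%) had no known function. Probe sets that the study did not call have no description here, so these shares have no background. Of the 2013 rises only 876 carry a description, so the same words cannot be compared between rises and falls.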

How the data were processed

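Labelled RNA from 12 arrays was processed by the authors with Partek and GCRMA (versions not given in the sources used here), and the table they deposited has 16824 rows of log2 signals after GC-RMA, those that passed their detection filter; 16764 remained without control probe sets. Arrays have no read depth, and 3 per genotype limit the precision. With limma 3.58.1 in R 4.3.3, a linear model of genotype was fitted on all 12 arrays (lmFit, eBayes) and p-values were adjusted by Benjamini-Hochberg over all 16764. The method was tested on simulated data. The interaction was added after the files were seen. Its call used the adjusted p alone.

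Gene names came from the platform table (9267 probe sets with 1 gene) and then from the study's supplementary tables (1677). Another 381 matched several genes and 5439 none. Different probe sets were never averaged. Chromosomes came from the TAIR10.1 annotation. Columns of the authors' own fold changes were not used here, but the 2 levels of the second factor, 1 of the alternatives, had been derived from them in earlier work. The study's table of double-mutant genes was held only in part, with nearly all falls but few rises.

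Genes were named by a rule: BRM and GA1, the 12 largest rises and falls with 1 named gene and no overlap between arrays, up to 4 called members and 2 others per list, and all GA and SWI/SNF genes. Further clock, flowering, low-oxygen and marker genes were chosen after their values were seen. Members and lists were chosen with earlier results of these data known. The alternatives were another normalization or centring, arrays of 2 genotypes, a replicate block, a second factor, ordinary variance, an intensity trend, other thresholds, no dim probe sets and each array left out. Figures were drawn with matplotlib.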

Additional observations from a re-analysis of the deposited data

Results flagged for a closer look

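The effect of ga1-3 in plants with and without BRM was compared by an interaction term (ga1-3/brm-1 minus brm-1, less the difference of ga1-3 and wild type, in limma at an adjusted p under 0.05). It was found at 1492 of 16764 probe sets (8.90%), positive at 741 and negative at 751. The brm-1 array that lay apart enters every such estimate. Each gene below was picked out because this difference passed the test.

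Among low-oxygen genes the interaction was 5.84 for AT2G17850, 5.72 for AT4G39675, 4.98 for AT5G66985, 4.36 for CML38, 4.35 for AT4G33560, 3.84 for AT5G10040, 2.86 for AT3G10040 (HRA1), 2.81 for AT4G10270, 2.64 for AT4G24110, 2.16 for ETR2, 2.15 for RBOHD, 1.65 for AT3G23170, 1.39 for AT3G27220 and 0.81 for NAC102. It was negative for AT2G15880 (-2.74) and AT3G10020 (-1.0001).

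Among the largest changes it was 5.40 for AT3G29970, 5.24 for AT4G27654, 5.07 for AT5G62080, 4.90 for AACT1, 3.54 for AT4G24350, 2.88 for AT1G66100 and 1.52 for AOP3. It was -2.99 for COR27 and -1.62 for CYS2.

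Clock, light and flowering genes had values of 4.03 for FLC, 2.53 for COL2, 1.63 for CCA1, 1.42 for CDF1, 1.39 for RVE1, 1.20 for CO, -0.59 for PIL6 (PIF5), -1.21 for TOC1, -1.29 for PRR5 and -1.56 for SPL4. In the GA and SWI/SNF lists it was 0.77 for GA3, -1.58 for GA20OX1 and -0.58 for CHC1.

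Other listed genes were PS2 (5.48), EXLB1 (2.32), XTH31 (2.22), MYB51 (2.20), ESP (1.97), F3H (1.55), AT1G76800 (1.45) and NRT1.1 (1.41) with positive values, and AT4G33980 (-2.75), RAB18 (-2.02), EPF1 (-1.11), TPS10 (-0.90) and BAM5 (-0.85) with negative ones.

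A level near background is only a bound, which limits many of these values. Of the 51 genes, 33 were near background in at least 1 genotype. Those near background in ga1-3/brm-1 and at least 1 single mutant numbered 14 and were AT5G62080, AT4G24350, AACT1, AT1G66100, CCA1, RVE1, COL2, CDF1, ESP, EXLB1, F3H, ETR2, EPF1 and BAM5. In 13, among them AT2G17850, AT3G29970 and AT4G27654, brm-1, ga1-3 and wild type were all near background.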

How the results depend on the processing

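The counts against the wild type (3964 in all, 2013 higher and 1951 lower) stayed within 1.5 times under every alternative except other fold thresholds. A fold over 2 gave 2043, 1074 and 969 probe sets, and no fold threshold 6236, 3063 and 3173. For ga1-3/brm-1 against brm-1 (1468) these thresholds gave 664 and 2408, the arrays of these genotypes alone 896, and an adjusted p under 0.01 691. For ga1-3/brm-1 against ga1-3 (3495) they gave 1475 and 5749. With 1 array left out, the counts were 3623 to 3906, 1750 to 1980 and 1795 to 1926 against the wild type, 1007 to 1579 against brm-1 and 3092 to 3456 against ga1-3. Of 186 named genes called, 167 kept the call without any 1 array, and no called gene changed sign.

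Same-numbered arrays of ga1-3/brm-1 and wild type did not deviate together (correlations of -0.086, -0.039 and -0.198), so the numbers do not pair them. With the replicate block 3899 probe sets were called, 3858 of them among the 3964, 1968 higher and 1931 lower, with 1287 against brm-1 and 3393 against ga1-3. With a second factor of 2 levels, unnamed in the study's methods and divided as earlier work had derived it from the study's own fold changes, 4149 were called, 3792 of them among the 3964.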
